A study of Mus musculus with 32 samples.

Results

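The transcripts described here code for the enzymes that place double bonds in fatty acyl chains and the enzymes that lengthen those chains. The 7 genes, Scd1, Scd2, Fads1, Fads2, Fads3, Elovl1 and Elovl5, were found in the deposited gene count table by their gene names, out of 56748 genes in all. Each of the 7 passed the filter on low counts, as did 16984 genes in total.

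The study crossed gene silencing with cholesterol loading in primary white adipocytes prepared from mouse subcutaneous fat and labelled WT. Cells carried a scramble siRNA, siNfe2l1, siAtf3 or both siRNAs (siNfe2l1+siAtf3), and each of these 4 kinds of culture was either a control or was loaded for 6 h with 400 µM cholesterol bound to methyl-β-cyclodextrin, a sugar ring that carries the sterol into cells. Messenger RNA was sequenced from 4 libraries in each of the 8 groups, 32 in all. Nfe2l1 codes for a membrane-bound transcription factor of the endoplasmic reticulum and Atf3 for a stress-induced transcription factor of the basic leucine zipper family. All groups received an siRNA and a medium with serum. The age and sex of the mice, the siRNA sequences and whether the control cultures received the empty carrier are not given in the sources used here. The 4 libraries of each group are labelled as biological replicates. Whether each came from an animal of its own is not given, so p-values measure only the spread between these libraries.

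Scd1 and Scd2 are stearoyl-CoA desaturases, which turn saturated palmitate and stearate into the monounsaturated palmitoleate and oleate that fill adipocyte triglyceride. Fads2 makes the first, slow desaturation of the essential fatty acids linoleate and alpha-linolenate, Elovl5 lengthens its products, and Fads1 makes the last desaturation that yields arachidonate and eicosapentaenoate. Fads3 acts on the sphingoid bases of ceramides, and Elovl1 builds the very long saturated and monounsaturated chains that sphingolipids carry. Transcription of many of these genes is under the sterol-regulated factors SREBP and LXR, and polyunsaturated fatty acids, the end products, feed back on them.

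Library totals ran from 23457384 to 33828418 counts, and all but 1 library lay at or below 28391112. The silencing was visible in the targets. Nfe2l1 stood at 487 ± 6.02 CPM (gene counts per unit of library size with TMM factors, mean ± SD, n = 4) in the scramble control group and at 73.8 ± 8.66 with siNfe2l1. Atf3 stood at 26.8 ± 2.43 CPM in the scramble control group and 10.1 ± 0.780 with siAtf3, and under cholesterol at 398 ± 129 and 40.9 ± 7.88. Under cholesterol its libraries spread widely, from 281 to 561 CPM in scramble and from 134 to 481 with siNfe2l1. On the leading principal component of the expression values (68.2% of the variance among highly variable genes), siNfe2l1 cholesterol libraries 3 and 4 scored 29.6 and 26.8, below libraries 1 and 2 of that group at 43.5 and 36.5. Results that use that group are given with and without libraries 3 and 4 where this matters. All 10 adipocyte markers checked had counts in every library, and their summed level was 10326 to 10901 CPM in scramble control and 14214 to 16246 CPM in scramble cholesterol libraries. The summed level of 8 fibroblast or adipose precursor markers was 23066 to 24383 CPM in scramble control libraries, 16210.0 to 16904 with siAtf3, 6883 to 7813 with cholesterol and 3677 to 4059 with both treatments. The summed levels of 7 macrophage, 6 endothelial and 6 smooth muscle or pericyte markers were 105 to 127, 583 to 635 and 471 to 519.7 CPM in scramble control and 71.0 to 81.7, 303 to 394 and 113 to 133 CPM in scramble cholesterol libraries. Single markers differed within a sum. With cholesterol in scramble cultures the log2 fold changes of Acta2, Cnn1 and Tagln were -2.63, -1.48 and -1.01, all called lower. Rgs5 (0.28) and Des (0.81) were called higher and Myh11 (0.11) was not called. Among the precursor markers the collagen genes Col1a1 and Col3a1 changed by -1.65 and -1.97, Pdgfra by -0.34, and Pi16 was not called. None of the defining markers Adipoq, Pdgfra, Adgre1, Pecam1 and Myh11 was at 0 in any group. The part of these markers in the results below was not tested. In bulk samples fewer cells of a type, less RNA per cell and a change in single marker genes cannot be told apart.

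Scd1 had the highest count of all genes in each of the 32 libraries, and it alone took 1.70% to 2.77% of all counts by group mean. These counts are not scaled for gene length, and no rank per kilobase over all genes was made. Per kilobase of transcript, where levels of different genes can be compared, Scd1 stood at 4835 ± 109 CPM per kb in the scramble control group, Scd2 at 359.7 ± 32.1, Fads3 at 70.0 ± 2.58, Fads1 at 65.0 ± 1.49, Fads2 at 63.1 ± 2.14, Elovl5 at 42.0 ± 1.56 and Elovl1 at 31.9 ± 0.148. The 3 Fads transcripts thus lay close to each other in that group. Across the 8 groups Scd1 made up 84.4% to 93.0% of the length-scaled total of the 7 transcripts. The genes sit in 2 clusters on mouse chromosome 19 and at 2 further loci (build GRCm39, coordinates of the deposited table). Fads3 lies at chr19:10018933-10037474 on the plus strand, Fads2 at chr19:10040129-10079110 on the minus strand and Fads1 at chr19:10160252-10174241 on the plus strand, with 2.7 kb between Fads3 and Fads2 and 81.1 kb between Fads2 and Fads1. Scd2 (chr19:44282113-44295303, plus) and Scd1 (chr19:44382894-44396318, minus) flank Scd4 in the second cluster. Elovl1 lies at chr4:118285290-118290150 and Elovl5 at chr9:77824646-77891801, both on the plus strand.

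**Figure D1:**
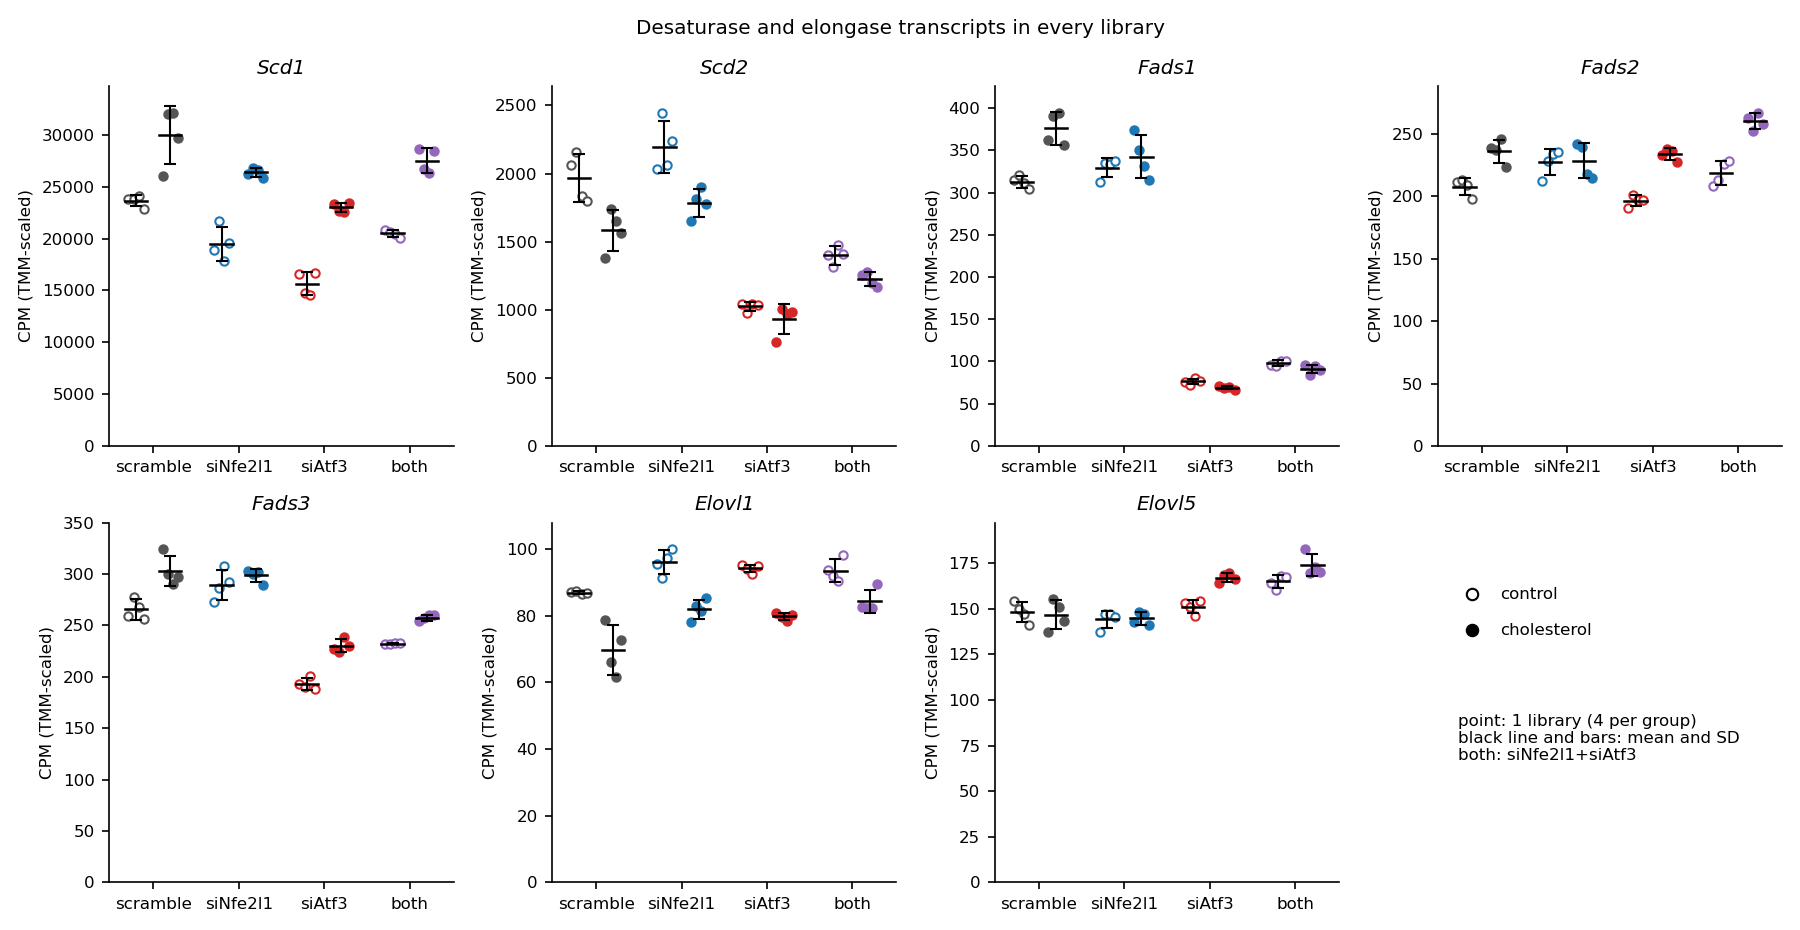
CPM of the 7 transcripts in every library, by siRNA (x axis; both means siNfe2l1+siAtf3). Open points are control and filled points cholesterol libraries, and black lines and bars give the mean and SD of 4 libraries. Fads1 lies between 66.6 and 101 CPM in all 16 libraries with siAtf3 and from 304 to 395 CPM in the other 16.

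With siAtf3 both stearoyl-CoA desaturases, Fads1 and Fads3 were lower than with scramble in control cultures. Fads1 kept 24.4% of its scramble level, Scd2 52.1%, Scd1 66.2% and Fads3 72.6%, while Fads2, Elovl1 and Elovl5 did not pass the test. The 4 members called lower stood beside a background of 18.2% of all tested genes lower and 18.1% higher in the edgeR fit, in which 0 members were called higher. Scaled to library totals instead of TMM factors, the split over all genes moved from 3093 lower and 3071 higher to 1871 lower and 5913 higher, with the median gene up by 0.15 on the log2 scale, and 2 members, Elovl1 and Elovl5, were then called higher beside 4 lower. In the same comparison the summed fibroblast or precursor markers lay at 16210.0 to 16904 against 23066 to 24383 CPM and the summed adipocyte markers at 10402 to 11366 against 10326 to 10901 CPM. The summed endothelial markers lay at 461 to 485 against 583 to 635 CPM. The part of these markers in the changes was not tested.

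Fads1 gave 315, 321, 311 and 304 CPM in the 4 scramble control libraries and 76.0, 72.3, 80.1 and 76.8 CPM in the 4 with siAtf3. No library of either group came near the other. The log2 fold change was -2.04 ± 0.051 (± standard error, edgeR quasi-likelihood test, adjusted p = 1.24e-26), the 45th largest in size among all tested genes. For Atf3 itself the log2 fold change in the same comparison was -1.41 ± 0.31 (adjusted p = 0.000796). Under cholesterol the Fads1 gap was wider, with 362, 390.3, 395 and 357 CPM in scramble and 71.4, 68.3, 69.5 and 66.6 CPM in siAtf3 libraries. The log2 fold change there was -2.45 ± 0.052 (adjusted p = 3.68e-29), so that 18.3% of the level remained.

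Scd2, the stearoyl-CoA desaturase that is prominent in preadipocytes and brain, was at 2065, 2161, 1835 and 1799.5 CPM in scramble control and 1042, 979, 1039 and 1035 CPM in siAtf3 control libraries. All 4 silenced libraries lay below all 4 scramble libraries, and the log2 fold change was -0.94 ± 0.074 (adjusted p = 2.97e-12). With cholesterol the values were 1383, 1741, 1648 and 1560.0 CPM in scramble and 766, 1005, 967 and 983 CPM with siAtf3. The groups again did not overlap, and the log2 fold change was -0.77 ± 0.074 (adjusted p = 1.95e-10).

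Scd1, the main adipose isoform, was at 23812, 23854, 24067 and 22871 CPM in scramble control libraries. With siAtf3 it was at 16616, 14761, 14576 and 16644 CPM, every library below the lowest scramble library, with a log2 fold change of -0.60 ± 0.055 (adjusted p = 4.99e-11). In cholesterol-loaded cultures it was at 26066, 32009, 32139 and 29708 CPM in scramble and 23336, 22662, 22556 and 23460.0 CPM in siAtf3 libraries. The log2 fold change there was -0.38 ± 0.055 (adjusted p = 3.87e-07), with no overlap.

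The neighbours of Fads1 in its cluster had smaller fitted values. Fads2 was at 212, 213, 209 and 198 CPM in scramble control and 191, 201, 197 and 197 CPM in siAtf3 control libraries, and the groups overlapped. Its log2 fold change was -0.080 ± 0.045 (95% interval -0.17 to 0.010, adjusted p = 0.164) in control and -0.015 (95% interval -0.11 to 0.076, adjusted p = 0.809) in cholesterol cultures, and with library totals these 2 values turned positive, 0.057 and 0.17. Fitted on the 2 control groups alone, Fads2 was called lower at -0.086 (adjusted p = 0.0322, with 0.0322 to 0.282 over the alternatives). Fads3 was at 259, 278, 268 and 256 CPM in scramble control and 193, 189.6, 201 and 188 CPM in siAtf3 control libraries. The groups were apart, with a log2 fold change of -0.46 ± 0.041 (adjusted p = 1.43e-11), and under cholesterol the value was -0.40 ± 0.040 (adjusted p = 3.29e-10). Per kilobase, Fads1 went from 65.0 to 15.9 CPM per kb in control cultures, Fads2 from 63.1 to 59.7 and Fads3 from 70.0 to 50.8. The 3 transcripts were thus close to each other in scramble control cultures, and with siAtf3 Fads1 lay far below Fads2 and Fads3. Within 100 kb of the cluster, a window chosen after the values were seen, 7 other protein-coding genes were tested. In control cultures 1 of them was called with siAtf3, Fth1, the ferritin heavy chain (log2 fold change -0.29, adjusted p = 0.000222). With cholesterol 3 of the 7 were called, Fth1 (-0.43) and Myrf (-0.56) lower and the flap endonuclease gene Fen1, the next gene beyond Fads1, higher (0.90). Over all tested genes 18.2% were lower and 18.1% higher in control and 27.4% and 23% in cholesterol cultures, so these counts are near the background.

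**Figure D2:**
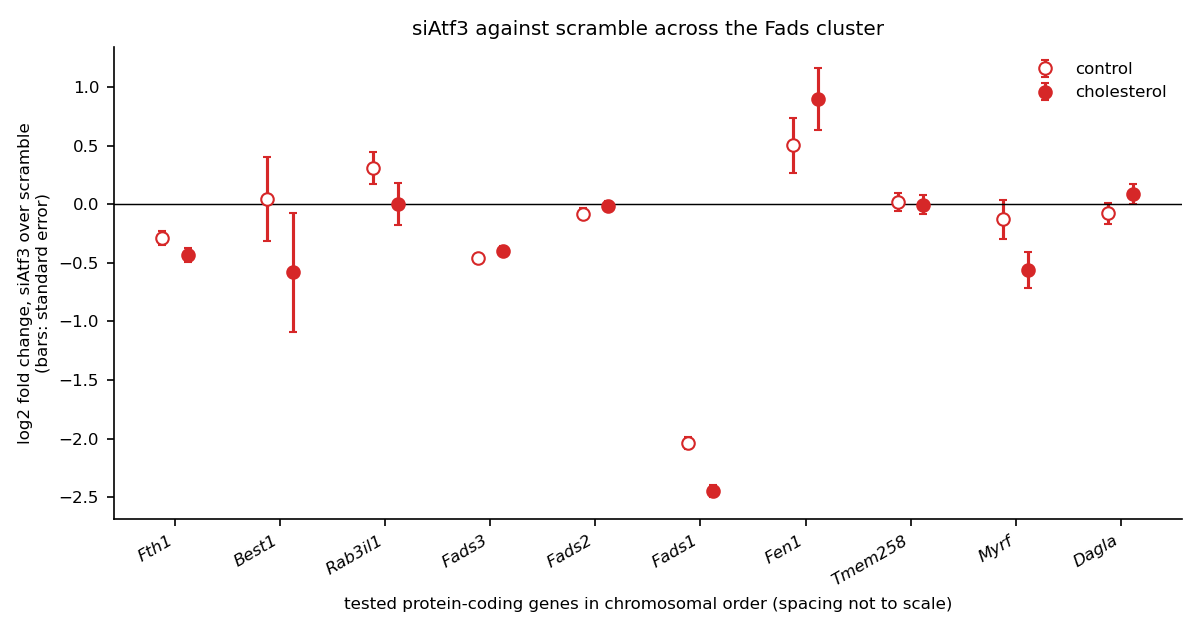
Log2 fold change with siAtf3 over scramble for the 10 protein-coding genes tested within 100 kb of the Fads cluster, in chromosomal order along the x axis, with standard errors as bars. Open points are control and filled points cholesterol cultures; Fads1 lies at -2.04 and -2.45, and the other 9 genes lie between -0.58 and 0.90.

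Neither elongase was called lower with siAtf3. Elovl5, which lengthens polyunsaturated chains between the Fads2 and Fads1 steps, was at 137, 155, 151 and 143 CPM in scramble cholesterol and 164, 169, 169.6 and 166 CPM in siAtf3 cholesterol libraries. All 4 silenced libraries lay higher, and the log2 fold change was 0.19 ± 0.041 (adjusted p = 0.000244). In control cultures it was 0.030 (95% interval -0.053 to 0.11, adjusted p = 0.615), with 154, 149.7, 147 and 141 CPM in scramble and 153, 151, 146 and 154 CPM in silenced libraries, which overlapped. Elovl1 was at 86.9, 87.4, 86.5 and 86.7 CPM in scramble control and 95.0, 94.0, 92.6 and 94.8 CPM in siAtf3 control libraries. Although these groups did not overlap, the log2 fold change of 0.12 ± 0.050 missed the threshold in the edgeR fit (adjusted p = 0.0688, and 0.000111 to 0.303 over the alternatives). In cholesterol cultures Elovl1 was at 78.6, 66.0, 61.7 and 72.7 CPM in scramble and 80.8, 79.7, 78.2 and 80.2 CPM in silenced libraries, which overlapped, and was called higher at 0.19 ± 0.051 (adjusted p = 0.00162). Under cholesterol, then, 4 members were called lower and 2 higher with siAtf3, beside 27.4% and 23% of all tested genes. Scaled to library totals, 2712 genes were lower and 6707 higher in place of 4659 and 3898, with the median gene up by 0.17, and Fads2 joined the members called higher (adjusted p = 0.000562, with 0.000562 to 1 over the alternatives). The summed macrophage markers were 54.4 to 67.8 CPM with siAtf3 against 71.0 to 81.7 in scramble cholesterol libraries, beside the lower fibroblast or precursor sum given above. The endothelial sum was lower too, at 217 to 251 against 303 to 394 CPM. The smooth muscle or pericyte sum was higher, at 167 to 191 against 113 to 133 CPM. The part of these sums in the changes was not tested.

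Promoter windows from RefSeq (build GRCm38.p6, unlike the GRCm39 coordinates above) were held for 4 of the 7 members, Elovl1, Elovl5, Fads2 and Fads3, and not matched for Scd1, Scd2 and Fads1. Those of Elovl5, Fads3 and Fads2 are printed because siAtf3 left these 3 transcripts higher, lower and not called under cholesterol. Elovl1 was called higher there as well, and its 2 windows are not printed. Each runs 5′ to 3′ on the gene's own strand from 250 bases before the RefSeq start to 30 bases after it, at chr9:77917115-77917394 (plus), chr19:10041298-10041577 (plus) and chr19:10101474-10101753 (minus). Capitals mark matches on either strand to 6 motifs, the CCAAT box (CCAAT), the E-box (CACGTG), the full cyclic AMP response element (TGACGTCA), the AP-1 site (TGANTCA), the sterol response element core (CACCCCAC) and the antioxidant response element core (TGACNNNGC).
Elovl5: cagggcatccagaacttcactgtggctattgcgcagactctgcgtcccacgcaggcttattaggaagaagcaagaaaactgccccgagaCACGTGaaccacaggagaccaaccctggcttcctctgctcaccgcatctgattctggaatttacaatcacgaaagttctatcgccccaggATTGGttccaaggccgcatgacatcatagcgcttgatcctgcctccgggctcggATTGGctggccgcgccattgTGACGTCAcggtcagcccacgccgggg
Fads3: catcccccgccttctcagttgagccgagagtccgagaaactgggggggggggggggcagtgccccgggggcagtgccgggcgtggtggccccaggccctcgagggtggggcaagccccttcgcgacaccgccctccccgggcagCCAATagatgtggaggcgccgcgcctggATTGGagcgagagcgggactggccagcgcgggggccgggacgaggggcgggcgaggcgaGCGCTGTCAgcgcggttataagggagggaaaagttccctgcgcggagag
Fads2: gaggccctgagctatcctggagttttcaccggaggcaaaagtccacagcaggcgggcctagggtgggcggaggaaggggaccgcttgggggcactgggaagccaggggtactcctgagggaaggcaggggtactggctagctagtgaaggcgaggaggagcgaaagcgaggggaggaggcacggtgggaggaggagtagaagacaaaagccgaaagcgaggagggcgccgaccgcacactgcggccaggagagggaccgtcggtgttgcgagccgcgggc
The Elovl5 window held the full cyclic AMP response element, the kind of site that ATF and CREB factors bind, with its first base at position 4 after the start. That motif is in 588 of 32851 RefSeq promoter windows (1.79%), counted, like the shares below, over 300 bases from 250 before to 50 after the start. Elovl5 also had an E-box at position -161 (7.15% of all windows) and CCAAT boxes on the minus strand at -71 and -17 (37.4% of all windows). Fads3 had CCAAT boxes at -106 and -78 and an antioxidant response element core, the kind of site that CNC factors bind with small Maf proteins, at -19 on the minus strand (12.4% of all windows). The only match in the 2 Elovl1 windows was a CCAAT box at -35 in the first, so neither held the cyclic AMP response element. The Fads2 window held none of the 6, and none of the 5 member windows, 2 of them for Elovl1, held the AP-1 site (7.81% of all windows) or the sterol response element core (2.87%). Positions count from the start that RefSeq gives. A match is a stretch of letters, and binding was not measured.

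With both siRNAs the same members were lower as with siAtf3 alone in control cultures, by less for each of the 4 fitted values. The summed fibroblast or precursor markers were 18067 to 18988 CPM against 23066 to 24383 in scramble and the macrophage markers 183 to 198 against 105 to 127 in control cultures. In cholesterol cultures these sums were 4367 to 5138 against 6883 to 7813 and 88.5 to 96.0 against 71.0 to 81.7 CPM. The endothelial sums were 499 to 522 against 583 to 635 CPM in control and 252 to 296 against 303 to 394 CPM in cholesterol cultures. None of these pairs overlapped, and their part in the changes was not tested. Fads1 was at 96.2, 94.4, 100.4 and 101 CPM in siNfe2l1+siAtf3 control libraries and 95.5, 84.0, 94.4 and 90.2 CPM in the cholesterol libraries, far below scramble in both. The log2 fold changes against scramble were -1.67 ± 0.050 (adjusted p = 6.05e-24) and -2.05 ± 0.051 (adjusted p = 9.41e-27). Scd2 was at 1399, 1312, 1476 and 1406 CPM in control and 1255, 1279.8, 1195 and 1166 CPM in cholesterol libraries, with log2 fold changes of -0.49 ± 0.073 and -0.37 ± 0.073 (adjusted p = 3.46e-06 and 9.97e-05). Neither group overlapped with its scramble group. Scd1 was at 20818, 20652, 20467 and 20058 CPM in control libraries, apart from scramble with a log2 fold change of -0.21 ± 0.055 (adjusted p = 0.00411, and 4.18e-07 to 0.133 over the alternatives, of which library totals ended the call). In cholesterol libraries Scd1 was at 28649, 26691, 26273 and 28417 CPM and overlapped with scramble, at -0.12 ± 0.055 (adjusted p = 0.0635, with 0.00271 to 0.731 over the alternatives). It was called lower with DESeq2 or its size factors, and with library totals the value turned to 0.025.

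Fads3 was almost constant among the siNfe2l1+siAtf3 control libraries at 232, 232, 232 and 232 CPM, below all scramble libraries, with a log2 fold change of -0.19 ± 0.040 (adjusted p = 0.000326). Under cholesterol Fads3 was lower by the same test at -0.23 ± 0.040 (adjusted p = 1.23e-05), and library totals ended both Fads3 calls (adjusted p = 0.0623 and 0.0786). Fads2 was at 263, 253, 267 and 258 CPM in siNfe2l1+siAtf3 cholesterol and 239, 238, 246 and 224 CPM in scramble cholesterol libraries. Every library with both siRNAs was higher, with a log2 fold change of 0.14 ± 0.044 (adjusted p = 0.0103). Elovl5 was at 164, 160.2, 168 and 167 CPM in control and 183, 169.7, 173 and 170.3 CPM in cholesterol libraries with both siRNAs, above scramble without overlap, at 0.16 ± 0.041 and 0.24 ± 0.041 (adjusted p = 0.00344 and 7.77e-06). Elovl1 was higher with both siRNAs than with scramble in cholesterol cultures, by 0.27 ± 0.050 on the log2 scale (adjusted p = 3.41e-05). It was at 82.6, 82.4, 82.3 and 89.5 CPM against 78.6, 66.0, 61.7 and 72.7 CPM in scramble. In control cultures its value against scramble was 0.11 (adjusted p = 0.117). In counts, 4 members were lower and 1 higher in control cultures beside 14.3% and 12.9% of all tested genes, and 3 were lower and 3 higher in cholesterol cultures beside 23.9% and 20.8%. With library totals the member counts were 2 lower and 3 higher in control and 2 and 3 in cholesterol cultures, and the split of all genes moved from 2426 lower and 2199 higher to 1473 and 4373, and from 4056 and 3537 to 2299 and 6049.

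Measured against siNfe2l1 instead of scramble, the addition of siAtf3 gave calls for Fads1, Scd2, Fads3 and Elovl5 and not for Scd1. In control cultures Fads1 changed by -1.75 ± 0.050, Scd2 by -0.65 ± 0.073 and Fads3 by -0.32 ± 0.040 on the log2 scale, and Elovl5 by 0.19 ± 0.041 (adjusted p = 1.43e-24, 2.08e-08, 1.17e-07 and 0.000382). These 3 lower and 1 higher calls stood beside 14.5% lower and 12.3% higher of all tested genes. Scd1 was at 0.072 (95% interval -0.039 to 0.18, adjusted p = 0.369). In cholesterol cultures Fads1 changed by -1.91 ± 0.051, Scd2 by -0.55 ± 0.073 and Fads3 by -0.21 ± 0.040, while Elovl5 rose by 0.26 ± 0.041 and Fads2 by 0.19 ± 0.044 (adjusted p = 8.58e-26, 3.99e-07, 6.31e-05, 2.98e-06 and 0.00104). Here 3 members were lower and 2 higher beside 20.9% and 15.7% of all tested genes. Without siNfe2l1 cholesterol libraries 3 and 4 the Fads2 value was 0.11 and no longer called (adjusted p = 0.0796, with 5.83e-07 to 0.0796 over the alternatives). Library totals turned the split of all genes from 2462 lower and 2092 higher to 1523 and 4158 in control and from 3547 and 2672 to 2312 and 4523 in cholesterol cultures, with 3 members lower and 2 higher in control and 3 lower and 4 higher in cholesterol cultures, Scd1 having joined those called higher in both (adjusted p = 0.0156 and 0.0145) and Elovl1 in cholesterol cultures. The comparisons with siAtf3 share scramble or siNfe2l1 libraries, so their values are set side by side and their likeness is not a result.

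**Figure D3:**
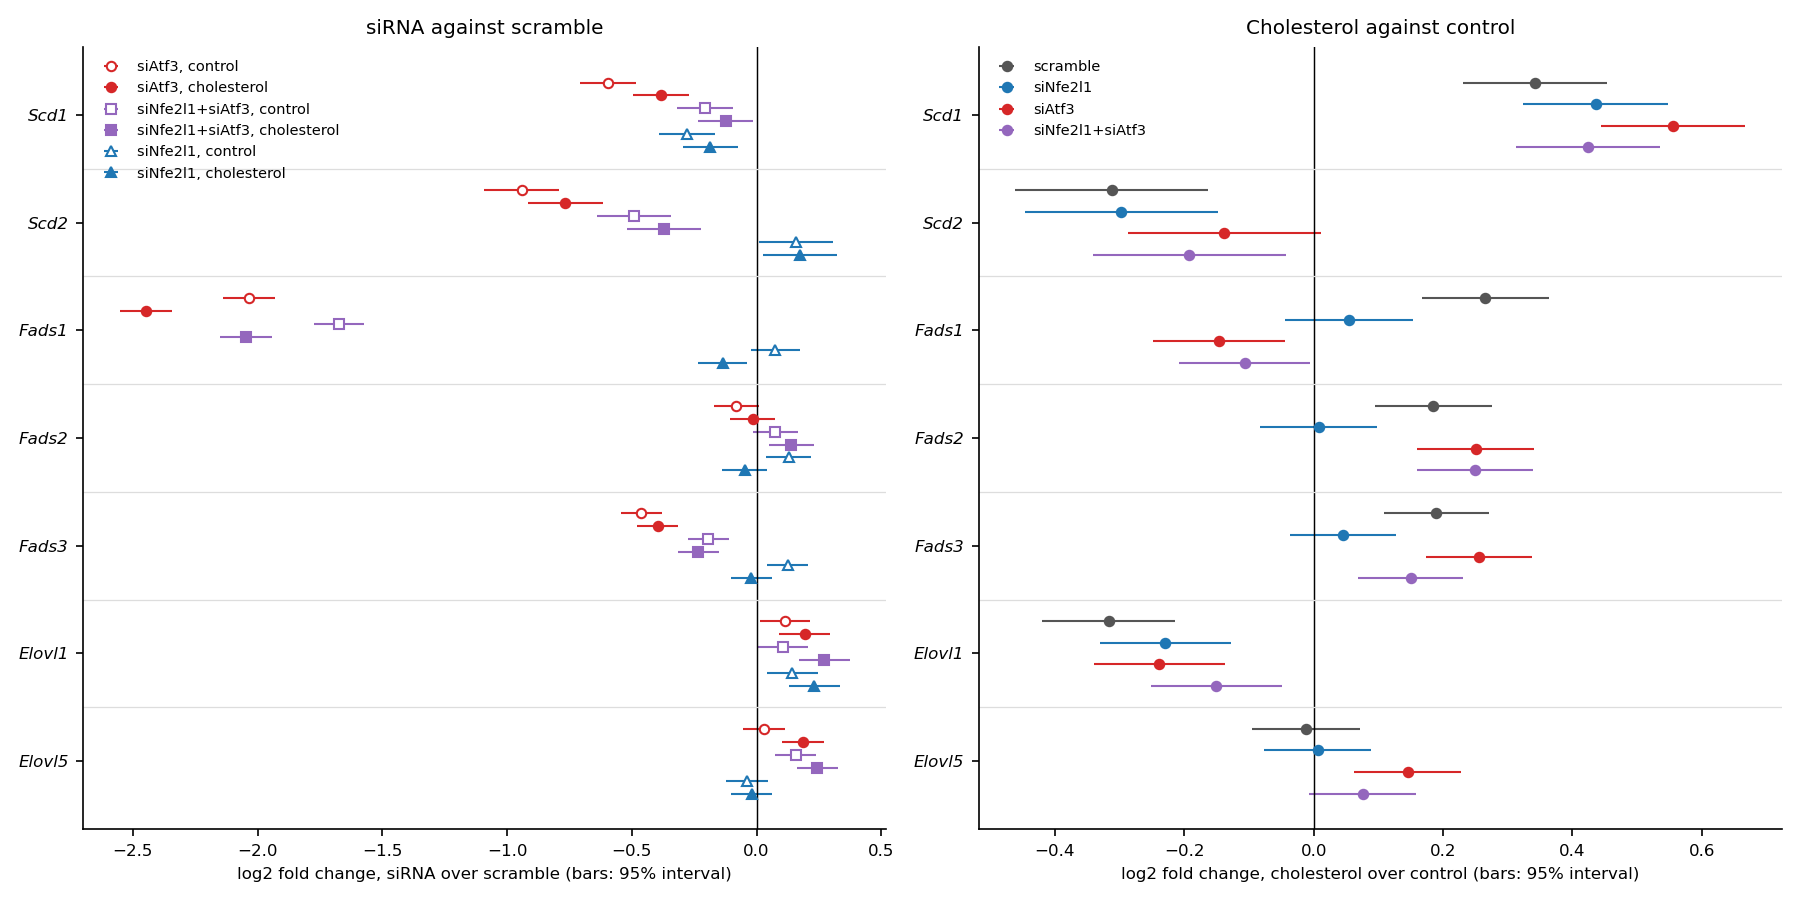
Log2 fold changes with 95% intervals (x axes) for the 7 transcripts (y axes). Left, siRNA over scramble in control (open) and cholesterol (filled) cultures, where the 4 Fads1 values with siAtf3 lie between -2.45 and -1.67; right, cholesterol over control within each siRNA, where Scd1 lies between 0.34 and 0.56 and Elovl1 between -0.32 and -0.15.

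Silencing of Nfe2l1 alone moved these transcripts little. In control cultures Scd1 was at 18878, 21718, 17845 and 19546 CPM with siNfe2l1, below all scramble libraries, with a log2 fold change of -0.28 ± 0.055 (adjusted p = 0.000836). It was the 1 member called lower and 0 were called higher, beside 2.87% and 3.13% of all tested genes. Scd2 at 2037, 2447, 2061 and 2235 CPM, Fads1 at 312, 335, 334 and 337 CPM and Fads2 at 212, 228, 234 and 235 CPM overlapped with their scramble libraries. Their log2 fold changes were 0.16 ± 0.073, 0.075 ± 0.049 and 0.13 ± 0.045 (adjusted p = 0.231, 0.462 and 0.0795). Elovl1 at 95.4, 91.3, 97.3 and 99.9 CPM did not overlap, and its log2 fold change of 0.14 ± 0.050 missed the threshold (adjusted p = 0.0829). Fads3 (0.12) and Elovl5 (-0.038) also overlapped and were not called. Under DESeq2 Fads2, Fads3 and Elovl1 were called higher as well, as were Fads2 and Fads3 with library totals. Markers moved in this comparison too, with no overlap between the groups. The summed adipocyte markers were 9114 to 10183 CPM with siNfe2l1 against 10326 to 10901, the fibroblast or precursor markers 25745 to 28044 against 23066 to 24383 and the macrophage markers 151 to 207 against 105 to 127, and their part in the Scd1 value was not tested.

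In cholesterol cultures siNfe2l1 gave 2 lower and 1 higher member calls, beside 8.59% and 11.3% of all tested genes, and in each of the 7 transcripts the 2 groups overlapped. Scd1 was at 26269.9, 26830.4, 26578 and 25794 CPM (-0.19 ± 0.055, adjusted p = 0.015), Fads1 at 374, 350.1, 331 and 315 CPM (-0.14 ± 0.049, adjusted p = 0.0447) and Elovl1 at 78.1, 82.7, 81.4 and 85.1 CPM (0.23 ± 0.051, adjusted p = 0.00117), each given with its log2 fold change. Fitted on the 2 groups alone, 0 members were called, and without siNfe2l1 cholesterol libraries 3 and 4 only Elovl1 was. Over the alternatives the adjusted p ran from 0.000596 to 0.149 for Scd1, 0.00285 to 0.624 for Fads1 and 3.59e-05 to 0.127 for Elovl1. Leaving out library 2 or 3 of scramble cholesterol, or 3 or 4 of siNfe2l1 cholesterol, also ended the Fads1 call. The remaining values on the log2 scale were 0.17 for Scd2, -0.048 for Fads2, -0.020 for Fads3 and -0.020 for Elovl5, none of them called. With library totals the split of all genes moved from 1923 higher and 1459 lower to 2615 and 992, with 2 members, Scd2 and Elovl1, higher and 0 lower. The same 3 marker sums, again without overlap, were 12631 to 13641 CPM against 14214 to 16246 for adipocytes, 8638 to 9211 against 6883 to 7813 for fibroblasts or precursors and 129.6 to 139.7 against 71.0 to 81.7 for macrophages.

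With cholesterol Scd1 was higher and Elovl1 lower within each of the 4 siRNA treatments, without overlap in any and under every scaling tried. In scramble cultures Scd1 rose by 0.34 ± 0.055 on the log2 scale (adjusted p = 1.29e-06), from 23651 ± 532 to 29981 ± 2838 CPM. Scd2 went the other way, from 1965 ± 176 to 1583 ± 152 CPM, a log2 fold change of -0.31 ± 0.073 (adjusted p = 0.000383). The 3 genes of the Fads cluster rose together, Fads1 by 0.27 ± 0.049, Fads2 by 0.18 ± 0.045 and Fads3 by 0.19 ± 0.040 (adjusted p = 1.15e-05, 0.000455 and 9.81e-05), and the control and cholesterol libraries did not overlap for any of them. Elovl1 changed by -0.32 ± 0.050 (adjusted p = 1.1e-06) and Elovl5 by -0.012 (95% interval -0.095 to 0.072, adjusted p = 0.819). The 4 higher and 2 lower members stood beside 32.9% and 32.3% of all tested genes, so the share called lower was near the background. With library totals, which moved the median gene by -0.12, the split of all genes was 4332 higher and 6804 lower in place of 5584 and 5487, the Fads2 and Fads3 calls ended (adjusted p = 0.189 and 0.132), and Elovl5 was called lower. The summed adipocyte markers were 14214 to 16246 against 10326 to 10901 CPM and the summed fibroblast or precursor markers 6883 to 7813 against 23066 to 24383 CPM in this comparison, and their part in it was not tested.

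In siNfe2l1 cultures Scd1 rose by 0.44 ± 0.055, and Scd2 and Elovl1 fell, with log2 fold changes of -0.30 ± 0.073 and -0.23 ± 0.050 (adjusted p = 1.41e-08, 0.000724 and 0.000149). That made 1 member higher and 2 lower beside 31.1% and 29% of all tested genes. The Fads cluster did not pass the test there. Fads1 was at 0.055 (95% interval -0.044 to 0.15), Fads2 at 0.0079 (-0.082 to 0.098) and Fads3 at 0.045 (-0.037 to 0.13), with libraries overlapping for all 3. Without cholesterol libraries 3 and 4 of this group the Fads1 value was 0.13 and was called higher (adjusted p = 0.0327, with 0.0327 to 1 over the alternatives).

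In siAtf3 cultures Scd1 rose by 0.56 ± 0.055, Fads2 by 0.25 ± 0.044, Fads3 by 0.26 ± 0.040 and Elovl5 by 0.15 ± 0.041 (adjusted p = 6.79e-11, 9.19e-06, 1.31e-06 and 0.00264). Fads1 took the opposite course to its neighbours, from 76.0, 72.3, 80.1 and 76.8 CPM in control to 71.4, 68.3, 69.5 and 66.6 CPM in cholesterol libraries. All 4 cholesterol libraries were lower, and the log2 fold change was -0.15 ± 0.050 (adjusted p = 0.0127). Leaving out siAtf3 cholesterol library 2 or 4, or siAtf3 control library 3, ended this call (adjusted p = 0.0536, 0.0807 and 0.105, with 9.01e-05 to 0.105 over the alternatives). Elovl1 changed by -0.24 ± 0.050 (adjusted p = 9.48e-05), and Scd2 by -0.14, which was not called. The 4 higher and 2 lower members stood beside 29.4% and 28.6% of all tested genes, and with library totals 3 members were higher and 3 lower, the Elovl5 call having ended (adjusted p = 0.153).

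With both siRNAs cholesterol raised Scd1 by 0.42 ± 0.055, Fads2 by 0.25 ± 0.044 and Fads3 by 0.15 ± 0.040 on the log2 scale (adjusted p = 2.71e-08, 9.17e-06 and 0.00171). Scd2 changed by -0.19 ± 0.073 and Elovl1 by -0.15 ± 0.050 (adjusted p = 0.0243 and 0.00938). Fads1 at -0.11 and Elovl5 at 0.076 were not called (adjusted p = 0.0649 and 0.108). These 3 higher and 2 lower members stood beside 29.8% and 28.9% of all tested genes. The Scd2 call ended without cholesterol library 3 or 4 or control library 3 of this group (adjusted p = 0.0633, 0.0792 and 0.0821), and the Fads3 call ended with library totals or with no filter on low counts (adjusted p = 0.0878 and 0.056). Fads1 was called lower with DESeq2 or its size factors, on the 2 groups alone and with library totals.

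Tests of the differences themselves gave calls for Fads1 and Scd1. The change of Fads1 with cholesterol differed between siAtf3 and scramble by -0.41 ± 0.070 on the log2 scale (adjusted p = 0.000146), that is -0.15 against 0.27. It was the 1 member called of 7, beside 15.3% of all tested genes. With both siRNAs the difference from scramble was -0.37 ± 0.070 (adjusted p = 0.000715), again the 1 member called, beside 13.7%. For siNfe2l1 alone 0 members were called in the edgeR fit, beside 0.247% of all tested genes. An unadjusted p under 0.05 in that fit was found for 3 members, beside 2589 of 16984 genes. By DESeq2, which called more genes in all, 1 member, Fads1, was called. The Fads1 difference there was -0.21 ± 0.069 (adjusted p = 0.135). Scd1 with siAtf3 at 0.21 ± 0.078 and Elovl5 at 0.16 ± 0.058 lay just outside the threshold (adjusted p = 0.0564 and 0.0612), and both were called with DESeq2, with its size factors, with library totals and on the 4 groups alone. Scaled to library totals, the split of all genes moved from 1054 higher and 1551 lower to 1321 and 1228 for siAtf3 and from 1107 and 1224 to 1474 and 982 for both siRNAs.

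The effect of siAtf3 on Scd1 and Fads1 also differed with siNfe2l1. In control cultures siAtf3 changed Scd1 by -0.60 over scramble and by 0.072 over siNfe2l1, a difference of 0.67 ± 0.078 (adjusted p = 2.02e-06). For Fads1 the values were -2.04 and -1.75, a difference of 0.29 ± 0.070 (adjusted p = 0.0192, and 0.00153 to 0.061 over the alternatives), a call that ended without siAtf3 control library 2. These 2 of 7 members stood beside 1.93% of all tested genes. In cholesterol cultures the difference was 0.44 ± 0.078 for Scd1 and 0.54 ± 0.070 for Fads1 (adjusted p = 0.000534 and 8.65e-06), 2 of 7 members beside 5.09%. With library totals the split of all genes moved from 232 higher and 96 lower to 154 and 175 in control and from 475 and 390 to 262 and 966 in cholesterol cultures. Of the silenced genes themselves, Nfe2l1 stood at 114 ± 1.91 CPM with both siRNAs against 73.8 ± 8.66 CPM with siNfe2l1 in control and at 157 ± 5.66 against 119.95 ± 17.4 CPM in cholesterol cultures. Its differences between the siAtf3 effects were called, at 0.65 ± 0.096 and 0.52 ± 0.095 on the log2 scale (adjusted p = 7.14e-05 and 0.000872). Atf3 stood at 15.3 ± 1.41 CPM with both siRNAs against 10.1 ± 0.780 CPM with siAtf3 in control and at 50.8 ± 2.99 against 40.9 ± 7.88 CPM in cholesterol cultures, and its differences were not called (adjusted p = 0.837 and 0.171). The part of either target in the Scd1 and Fads1 values was not tested.

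**Figure D4:**
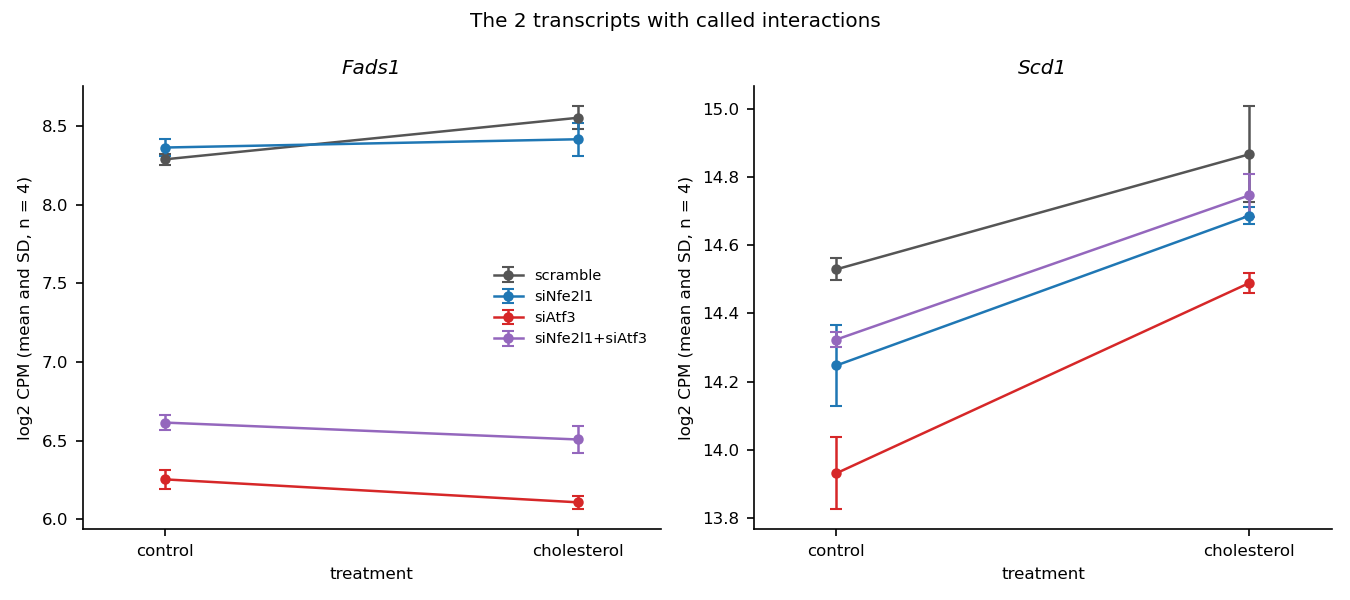
Mean log2 CPM (y axis) with SD over 4 libraries of Fads1 (left) and Scd1 (right) in control and cholesterol cultures (x axis), 1 line for each siRNA; the y axes do not start at 0. The Fads1 line rises for scramble and falls for siAtf3, and the Scd1 line of siNfe2l1+siAtf3 lies above those of siAtf3 and siNfe2l1 in both treatments.

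Other genes of the pathway were followed in lists drawn up by function, here first for siAtf3 against scramble in control cultures, where 18.2% of all tested genes were lower and 18.1% higher. Of the 4 other elongase genes that could be tested out of 5, 2 were lower and 2 higher in control cultures. Elovl6, which lengthens palmitate to stearate ahead of the Scd step, was lower by the test, at 101 ± 7.63 CPM in scramble and 45.2 ± 3.25 CPM with siAtf3, a log2 fold change of -1.16 ± 0.065 (adjusted p = 1.22e-16). Elovl3, an elongase of brown and white fat, was at 3.38 ± 0.388 and 0.882 ± 0.330 CPM, with -1.93 ± 0.21 (adjusted p = 3.23e-09). Fatty acid synthesis, which supplies the palmitate, had 6 of 8 genes lower and 0 higher, with a median log2 fold change of -0.55 beside 0.014 over all tested genes. The citrate carrier Slc25a1 and ATP citrate lyase Acly, which bring acetyl units to the cytosol, led with -1.37 ± 0.055 and -1.44 ± 0.063 (adjusted p = 1.18e-20 and 1.37e-19). Of the 6 enzymes of the later elongation steps 4 were lower (1 with library totals) and 0 higher, with the dehydratase Hacd1 at -1.52 ± 0.14 (adjusted p = 1.38e-10). Of 5 electron donors of the desaturases 3 were lower (1 with library totals, where Cyb5r3 turned from -0.10 to 0.036) and 1 higher, with the reductase Cyb5r4 at -0.55 ± 0.055 (adjusted p = 3.95e-10). Among 6 genes that place acyl chains on lipids 4 were lower and 1 higher, the glycerol-phosphate acyltransferase Gpam at -1.04 ± 0.089 and the lysophospholipid acyltransferase Mboat7, which prefers arachidonate, at 0.43 ± 0.052 (adjusted p = 8.87e-11 and 3.04e-08). Of 11 lipogenic regulators 3 were lower and 1 higher (3 and 4 with library totals), with Insig1, which holds SREBP in the endoplasmic reticulum, at -0.94 ± 0.11 (adjusted p = 1.5e-07). The SREBP1 gene Srebf1 was at -0.22 (adjusted p = 0.167). In 8 SREBP2 targets of sterol synthesis 5 were lower (2 with library totals) and 1 higher, and in 6 LXR targets 3 were lower and 2 higher (2 and 2 with library totals). Among the LXR targets the phospholipid transfer protein gene Pltp stood at -0.65 ± 0.061 and the sterol exporter gene Abcg1 at 1.11 ± 0.054 (adjusted p = 6.25e-11 and 2.35e-18). Of 5 acyl-CoA synthetases 1 was lower, Acsl1, the main one of fat cells, at -0.52 ± 0.080 (adjusted p = 3.63e-06), and 0 were higher (2 with library totals). In cholesterol cultures fatty acid synthesis had 7 of 8 genes lower (6 with library totals) and 0 higher, with Acly at -1.63 ± 0.063 and Slc25a1 at -1.40 ± 0.055 (adjusted p = 2.47e-21 and 3.81e-21), and Elovl6 stood at -0.73 ± 0.067 and Elovl3 at -1.71 ± 0.17 (adjusted p = 2.88e-11 and 8.81e-11). The SREBP2 targets were split there, with 4 of 8 higher and 3 lower (4 and 1 with library totals) and a median log2 fold change of 0.27, and Hmgcs1, an early enzyme of sterol synthesis, stood at 0.65 ± 0.059 (adjusted p = 2.46e-11). Of the remaining lists, counted as lower and higher, the later elongation enzymes had 3 and 1 of 6 (1 and 2 with library totals), the electron donors 2 and 1 of 5 (1 and 3), the acyl-CoA synthetases 3 and 0 of 5 (1 and 0), the genes that place acyl chains 4 and 1 of 6 (1 and 1), the regulators 6 and 2 of 11 (3 and 3) and the LXR targets 4 and 2 of 6 (3 and 2), beside 27.4% lower and 23% higher of all tested genes. The other elongases had 2 and 1 of 4 (2 and 2). The 2 other desaturase genes, Fads6 and Degs1, were both lower with siAtf3 under cholesterol (1 with library totals). In control cultures 0 of these 2 were called (0 lower and 1 higher with library totals). Of the 2 other stearoyl-CoA desaturase genes 0 were called with siAtf3 in either kind of culture. All genes named here as higher or lower with siAtf3 kept their direction with library totals except Cyb5r3.

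For cholesterol in scramble cultures the same lists gave other counts, beside 32.9% of all tested genes higher and 32.3% lower. Of the 8 SREBP2 targets 7 were lower and 0 higher, and the 6 LXR targets were all higher (5 of 6 called with library totals). The sterol carrier gene Stard4 changed by -2.19 ± 0.073, the squalene epoxidase gene Sqle by -1.30 ± 0.052, Abcg1 by 1.28 ± 0.054 and the cholesterol hydroxylase gene Ch25h by 1.98 ± 0.10 (adjusted p = 8.7e-24, 1.62e-21, 6.81e-21 and 1.02e-17). Among 11 lipogenic regulators 7 were higher and 3 lower (6 and 3 with library totals), the SREBP2 gene Srebf2 at -0.88 ± 0.046 and the LXR alpha gene Nr1h3 at 1.32 ± 0.070 (adjusted p = 3.35e-18 and 4.53e-18). Fatty acid synthesis had 6 genes higher and 2 lower, with Acly at 0.62 ± 0.062 and fatty acid synthase, Fasn, at -1.51 ± 0.11 (adjusted p = 6.42e-11 and 4.58e-12). Of 6 enzymes of the later elongation steps 2 were higher and 2 lower, the shares seen over all genes, with the ketoacyl reductase Hsd17b12 at 0.57 ± 0.042 and the dehydratase Hacd4 at -1.66 ± 0.11 (adjusted p = 2.71e-14 and 5.45e-16). Among the other elongases 3 were higher and 1 lower. Elovl6 went from 101 ± 7.63 to 51.9 ± 2.41 CPM (-0.96 ± 0.065 on the log2 scale, adjusted p = 2.73e-15) while Elovl3 went from 3.38 ± 0.388 to 9.02 ± 1.03 CPM (1.42 ± 0.16, adjusted p = 1.29e-09). The elongase Elovl6 and the desaturase Scd1, successive enzymes on the path to oleate, thus moved in opposite directions with cholesterol. Both other desaturase genes that could be tested out of 3 were higher, Fads6 by 2.24 ± 0.16 and the dihydroceramide desaturase Degs1 by 0.36 ± 0.038 (adjusted p = 6.88e-15 and 1.65e-10). Of 5 electron donors 3 were higher and 1 lower (2 and 2 with library totals). The reductase Cyb5r1 rose by 1.65 ± 0.068 and the donor Cyb5b changed by -0.41 ± 0.048 (adjusted p = 3.61e-21 and 3.44e-09). Among 6 genes that place acyl chains on lipids 3 were higher and 2 lower (2 and 2 with library totals). Of the acyl-CoA synthetases 4 of 5 were higher (3 with library totals) and 0 lower. Among them Acsl4, which activates arachidonate, rose by 0.99 ± 0.054 (adjusted p = 9.08e-18). Of the 2 remaining stearoyl-CoA desaturase genes Scd3 rose by the test, from 3.30 ± 0.744 to 8.13 ± 1.39 CPM (1.30 ± 0.30, adjusted p = 0.000516), but Scd1 shares sequence with it and is far more abundant, so that Scd3 is uncertain. Scd4 stayed under 1 CPM in every library.

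By the shape of the 8 group means, measured as the root mean square difference of centred log2 CPM, the 3 genes closest to Fads1 out of 10888 were the ubiquitin-conjugating variant Ube2v2 (0.168), haptoglobin Hp (0.223) and Wscd2 (0.254), where Fads1 itself deviates by 1.03 from its own mean. Those closest to Scd1 were Ddo (0.069), Sgcd (0.0765) and Dnaja3 (0.084), and those closest to Scd2 were Ccnyl1 (0.0815), Sbsn (0.0821) and Slc25a35 (0.0822). Fads3 lay closest to resistin, Retn (0.0426), Agt (0.0537) and Reep6 (0.0546), and Fads2 to Zfp526 (0.0382), Sirt3 (0.0464) and Anks6 (0.0482). Elovl1 lay closest to Arfgap1 (0.0306), Abl1 (0.0311) and Tmem159 (0.0339), and Elovl5 to Acy1 (0.03), Bcs1l (0.0378) and Zfp661 (0.04). Among the members, Fads2 and Elovl5 were the most alike (0.112) and Fads1 and Elovl5 the least (1.11). The span between the highest and lowest group mean was 5.45-fold for Fads1, 2.37-fold for Scd2, 1.91-fold for Scd1, 1.57-fold for Fads3, 1.38-fold for Elovl1, 1.32-fold for Fads2 and 1.21-fold for Elovl5.

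Reads can be shared between some of these genes. In GENCODE M21 transcripts 2.97% of the 50-base stretches of Scd1 recur in Scd2 and 3.42% in Scd3, and how reads with several matches were counted is not given in the sources used here. Between Fads2 and Fads3 the share was 0.152%, and Fads1 shared none with any other member. The last 53 bases of Elovl1 overlap the end of Cdc20 on the opposite strand, a gene with a mean of 233.5 counts per library against 2263 for Elovl1, so that without strand information a small part of the Elovl1 count could belong to Cdc20.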

How the data were processed

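Poly(A)-selected RNA from 32 primary mouse adipocyte cultures in 8 groups of 4 was sequenced, with reads processed by fastp, HISAT2 2.0.5 and featureCounts 1.5.0-p3 on GRCm39, per the submitters' processing notes. The deposited table holds raw gene counts made by the authors, with no normalization, and strand and multi-mapping settings are not given in the sources used here. All 32 count columns were matched to samples by name, the single letters in these names being read through the sample titles. Genes were filtered with filterByExpr (minimum count 10, minimum total 15) to 16984 of 56748, scaled with TMM and fitted with edgeR 4.0.16 (robust quasi-likelihood, R 4.3.3, limma 3.58.1) over 8 group means, leaving 24 residual degrees of freedom. The 17 contrasts were 12 comparisons of groups and 5 differences of such comparisons. P-values were adjusted by Benjamini-Hochberg over all tested genes and called at 0.05. Intervals are at 95% and cover the spread between libraries. Alternatives were DESeq2 1.42.0, its size factors, no filter, only the groups compared, a replicate block, leaving out each library and, chosen after seeing the data, library totals and no siNfe2l1 cholesterol libraries 3 and 4. The pipeline was tested on simulated counts for siAtf3 against scramble in control cultures over 16825 genes, where 62% of genes changed 1.25-fold, 94% of those changed 1.5-fold and all of those changed 2-fold were recovered. Of 182 calls 4 were false. The changed genes, 50 for each fold and balanced between up and down, had a mean log2 CPM of at least 2. Far fewer genes changed there than were called in the real comparison, so recovery in the real comparison was not measured. Within groups, any 2 libraries were further apart than sampling noise (chi-square per degree of freedom 2.62 to 40.5 over 48 pairs). Library 1 of scramble cholesterol stood at 26.7 to 31.9 from the others of its group, which were 4.35 to 9.80 apart. For library 1 of siAtf3 cholesterol these values were 12.6 to 15.5 and 3.14 to 3.95. Scramble cholesterol library 1 had the lowest Scd1 and Scd2 and the highest Elovl1 of its group, which enters every cholesterol comparison with scramble. The members and the gene lists were chosen with earlier results of these data known. Members are named in every comparison, list genes by a rule of up to 2 called genes per list and comparison with the smallest adjusted p, and likeness by the 3 closest protein-coding genes with a mean log2 CPM of at least 2. Genes named beyond these (Srebf1, Scd4, Cyb5r3, the single cell type markers given with log2 fold changes, the genes around the Fads cluster and Cdc20) were chosen after their values were seen.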

Additional observations from a re-analysis of the deposited data

Results flagged for a closer look

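In 5 of the 56 groups of 4 values (7 genes in 8 groups), 1 library stood far from the other 3, where chance alone gives about 1 in 20. Scd2 was at 979 CPM in library 2 of the siAtf3 control group, while the others lay between 1035 and 1042. It was also at 766 CPM in library 1 of the siAtf3 cholesterol group, against 967 to 1005 in the others. In library 1 of the siNfe2l1 control group both Fads1, at 312 CPM against 334 to 337, and Elovl5, at 137 CPM against 146 to 147, were the lowest. Elovl1 was at 89.5 CPM in library 4 of the siNfe2l1+siAtf3 cholesterol group against 82.3 to 82.6 in the others.

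In 6 of 35 tests of a difference between 2 effects on a member the difference passed the threshold in edgeR's quasi-likelihood test. All 6 were for Fads1 or Scd1, in contrasts that share libraries. Over all tested genes the shares called were 0.247%, 15.3% and 13.7% for the interactions of siNfe2l1, siAtf3 and both siRNAs with cholesterol. For the interaction of the siRNAs they were 1.93% in control and 5.09% in cholesterol cultures. The response of Fads1 to cholesterol differed from that in scramble cultures by -0.41 on the log2 scale with siAtf3 (adjusted p = 0.000146) and by -0.37 with both siRNAs (adjusted p = 0.000715). The effect of siAtf3 on Scd1 with siNfe2l1 present differed from that without it by 0.67 in control (adjusted p = 2.02e-06) and 0.44 in cholesterol cultures (adjusted p = 0.000534). For Fads1 these differences were 0.29 (adjusted p = 0.0192) and 0.54 (adjusted p = 8.65e-06).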

How the results depend on the processing

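Of 119 values (7 members in 17 contrasts) 60 were called. Over all tested genes the share called differed widely between contrasts. It was 0.247% for the interaction of siNfe2l1 with cholesterol, and 32.9% higher and 32.3% lower for cholesterol in scramble. The contrasts share libraries, so the 119 values are not separate results. Of the 60 called values 46 were called in every alternative, and none of the 60 reversed. A further 31 values passed in no fit. With library totals Fads1 for cholesterol in siNfe2l1 turned to -0.028, Fads2 with siAtf3 to 0.057 in control and 0.17 in cholesterol cultures, and Scd1 with both siRNAs under cholesterol to 0.025. The Fads2 value with siAtf3 under cholesterol was also positive with no filter (0.00070) and on the 2 groups alone (0.0043). Leaving out 1 library gave -0.047 to 0.019 for Elovl5 with cholesterol in scramble, -0.012 to 0.070 for Fads1 with cholesterol in siNfe2l1 and -0.018 to 0.026 for Fads2 with siAtf3 under cholesterol. None of these 3 passed the main test.

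For siNfe2l1 in control cultures the 1 member called became 4 with DESeq2, 3 with library totals and 2 on the groups alone. For siNfe2l1 under cholesterol the 3382 genes called became 1206 without siNfe2l1 cholesterol libraries 3 and 4 and 645 on the groups alone, and the 3 members became 1 and 0. For the interaction of siNfe2l1 with cholesterol 42 genes became 310 with DESeq2, 72 with no filter, 5 without those libraries, 2 on the groups alone and 143 with the replicate block, and 0 members became 1 with DESeq2. For that of siAtf3 with cholesterol the 1 member became 3 with size factors, DESeq2, library totals or the groups alone and 2 with no filter, and for both siRNAs with cholesterol 2 with library totals. For the interaction of the siRNAs in control cultures 328 genes became 547 with DESeq2 and 757 on the groups alone. Under cholesterol 865 genes became 1310 with DESeq2, 312 without the 2 libraries and 259 on the groups alone, and 2 members became 4 with size factors, DESeq2 or the replicate block. Leaving out 1 library gave 1 to 3 members for siNfe2l1 in control cultures, 2153 to 4755 genes for siNfe2l1 under cholesterol, and 2 to 1337 genes and 0 to 2 members for its interaction with cholesterol. It gave 1 to 4 members for siAtf3 with cholesterol and 1 to 2 for both siRNAs with cholesterol. For the interaction of the siRNAs it gave 214 to 339 genes and 1 to 2 members in control and 510 to 2295 genes and 2 to 4 members in cholesterol cultures. Fewer libraries enter where groups or libraries are left out, and otherwise the cause was not tested.

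Over all groups the replicate numbers paired the libraries weakly at most, and more among cholesterol than among control libraries. The mean correlation of a library with those of its number in other groups was 0.018 to 0.16 for cholesterol and -0.096 to 0.11 for control libraries. On the leading principal component library 1 scored highest in each cholesterol group (47.9, 43.5, 39.0 and 37.1). Over 112 pairs with the same number in different groups the mean correlation of deviations was 0.046 (-0.30 to 0.55), 30 were over 0.1, and 12 of 32 libraries matched their own number best. A replicate block ended no member's call and added Elovl1 with siAtf3 in control cultures (adjusted p = 0.0487) and Fads2 and Fads3 in the siRNA interaction under cholesterol (adjusted p = 0.0456 and 0.0446).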
